A study of Schizosaccharomyces pombe with 3 samples.

Results

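The introns described here are those whose splicing could be compared between 60 min and 30 min of inhibition of Prp4 kinase in the fission yeast *Schizosaccharomyces pombe*. They are the junctions with more than 10 reads in both the 60 min and the 30 min library, 4383 of the 5368 junctions in the deposited table, and they lie in 2201 genes. All cells carried *prp4-as2*, an allele whose kinase accepts the bulky ATP analogue 1NM-PP1 and is then blocked. RNA came from cells of this strain kept for 60 min in 10 μM 1NM-PP1, from cells kept for 30 min in the same dose, and from cells without inhibitor. There was 1 library per condition and the strain served as its own control, so every value compares single libraries, no test was made, and a wild-type strain with the inhibitor is not analysed here.

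Prp4 is a protein kinase of the spliceosome. It phosphorylates splicing factors before the spliceosome becomes active, and introns of fission yeast differ in how much their removal needs it. An intron begins at the 5' splice site (5' SS), which the snRNA U1 recognises by base pairing, holds a branch point near its end and closes with the bases AG at the 3' splice site. When the kinase is blocked, pre-mRNA that keeps its introns builds up, and the question addressed here is which introns were spliced better again, which were not, and which worse, after a longer time in the inhibitor.

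Reads that cross the junction from exon to exon (split reads) count spliced RNA, and reads that run from the exon into the intron (unsplit reads) count unspliced RNA. The splicing index RSEI is the log2 of split over unsplit reads after 1 is added to both. Positive values mean that spliced RNA prevailed. An intron regained spliced RNA when its RSEI was at least 1 higher at 60 min than at 30 min and the exact (Clopper-Pearson) 95% intervals of the unspliced share did not overlap. It fell further when the RSEI was at least 1 lower and the intervals did not overlap. It stayed when the change was under 1 in size, and it was not settled when the change was 1 or more in size but the intervals overlapped. The intervals cover counting error only, because PCR reads without molecular identifiers are not independent molecules and no second culture was sequenced.

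The whole libraries held 743457 junction reads at 60 min and 852562 at 30 min. The untreated library held 910440. Unsplit reads were 22.8% of all junction reads at 60 min and 30.0% at 30 min, against 6.92% without inhibitor. The median member had 70 reads at 60 min and 80 at 30 min. Of the members, 4329 could be matched to an intron of the RefSeq assembly ASM294v3 and 54 could not. At the read minimum, 63 junctions had 11 reads in the shallower library, with a median change in RSEI of 0.40, and 69 junctions with 10 reads were left out, with a median change of 0.74.

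The sequences of introns with a large change are shown first, because the ends of an intron are the part the spliceosome reads. All sequences are from RefSeq ASM294v3, run 5' to 3' on the strand of the gene, begin with 3 exon bases ahead of the intron whose coordinates are given, and have capitals at the 6 bases of the 5' SS, at the pentamer taken as the branch site and at the closing AG. The introns below regained spliced RNA with some of the largest changes, and they were chosen among those with at least 50 reads in both libraries.
qcr9 intron I (III:371287-371352, + strand): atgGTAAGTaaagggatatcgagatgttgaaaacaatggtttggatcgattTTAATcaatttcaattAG
skb15 intron II (III:676291-676359, - strand): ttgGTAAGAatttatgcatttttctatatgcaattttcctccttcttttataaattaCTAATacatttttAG
SPBC21.03c intron III (II:3218425-3218466, - strand): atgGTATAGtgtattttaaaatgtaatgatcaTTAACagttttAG
rpb8 intron II (II:2224103-2224150, + strand): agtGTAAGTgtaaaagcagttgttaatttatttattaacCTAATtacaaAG
psf3 intron II (I:528461-528566, - strand): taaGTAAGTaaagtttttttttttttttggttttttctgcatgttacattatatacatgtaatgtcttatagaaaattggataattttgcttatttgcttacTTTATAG
SPAC6F6.11c intron I (I:2752732-2752773, - strand): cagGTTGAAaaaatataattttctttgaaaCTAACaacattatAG
nop58 intron II (I:877107-877174, + strand): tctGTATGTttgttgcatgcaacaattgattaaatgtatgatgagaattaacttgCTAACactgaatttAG
The introns below fell further.
wbp1 intron I (III:1349223-1349268, - strand): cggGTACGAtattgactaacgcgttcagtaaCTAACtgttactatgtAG
vma2 intron IV (I:4547580-4547624, - strand): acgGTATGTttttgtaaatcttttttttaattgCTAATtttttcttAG
fkh1 intron I (II:632434-632615, - strand): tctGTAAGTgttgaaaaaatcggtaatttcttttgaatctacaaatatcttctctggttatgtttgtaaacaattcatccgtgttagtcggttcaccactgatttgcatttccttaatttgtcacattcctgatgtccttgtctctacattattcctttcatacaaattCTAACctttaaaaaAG
SPAC1687.21 intron II (I:942297-942450, + strand): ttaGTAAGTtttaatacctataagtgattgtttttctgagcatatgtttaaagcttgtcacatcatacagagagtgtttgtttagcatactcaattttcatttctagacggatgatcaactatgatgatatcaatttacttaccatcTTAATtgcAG
Both sets hold introns that begin with GTAAGT or GTATGT, the hexamers that are most frequent among all members, and both hold branch pentamers of the form CTAAN. No hexamer and no branch pentamer was shared by all introns of one set and missing from the other.

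Over all members, splicing was better at 60 min than at 30 min, but far from the untreated level. The median RSEI was 1.42 at 60 min and 0.54 at 30 min, and 3.49 in untreated cells. The median unspliced share was 26.3% at 60 min and 40.4% at 30 min, against 6.82% in untreated cells. The RSEI was higher at 60 min in 3727 introns and lower in 643, and the median change was 0.76, with quartiles of 0.27 and 1.23. Among the 1600 introns with at least 100 reads in both libraries, 1448 were higher at 60 min (90.5%), with a median change of 0.74. The change therefore had the same direction in most introns, and single introns spread widely around it, between -5.09 and 5.70.

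By the rule above, 589 introns regained spliced RNA, which is 13.4% of the 4383 introns. They lie in 479 genes. Only 7 introns fell further, 0.160% of all. A further 2674 stayed, of which 2116 had a higher RSEI at 60 min, and 1113 were not settled, of which 1022 were higher and 91 lower at 60 min. How often an intron was called rose with its reads. In the fifth of introns with the fewest reads, up to 61 in both libraries together, 1.56% regained spliced RNA, and in the fifth with more than 409 reads 24.9% did, whereas the median change was 0.79 and 0.67 in these groups. Shares of regained introns are therefore given below beside the median change, which moved little with the number of reads.

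**Figure D1:**
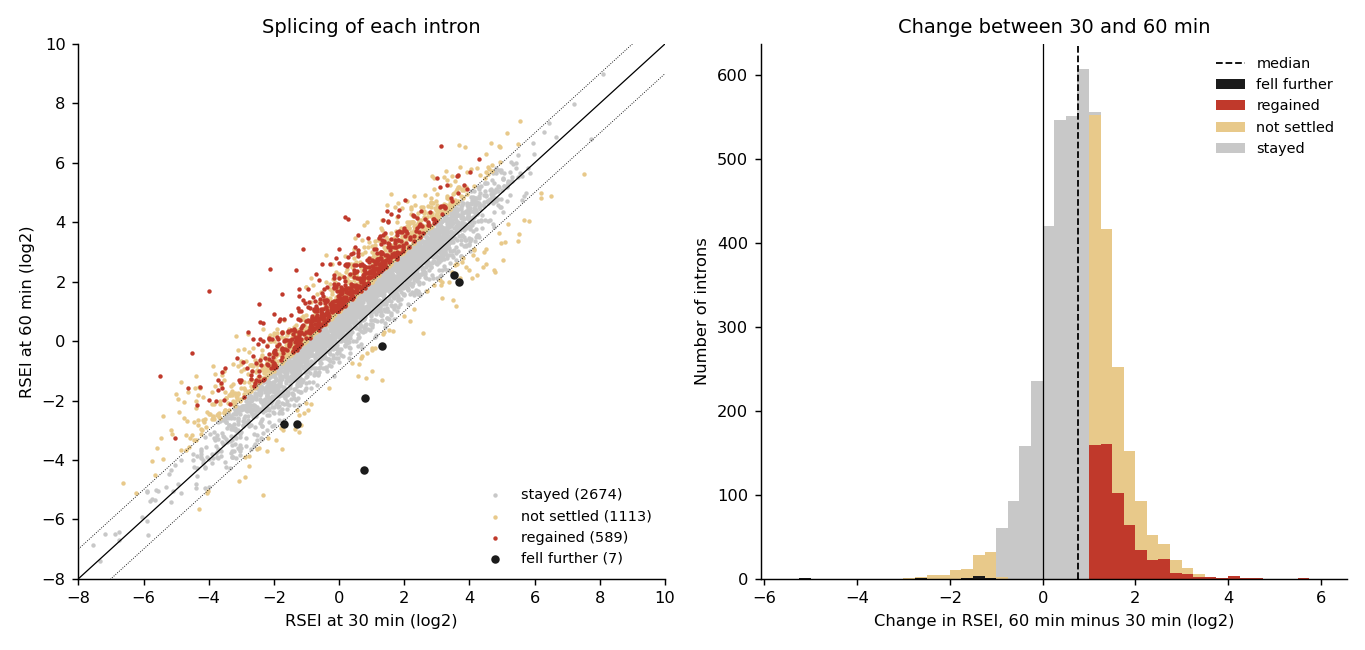
Left, RSEI of each of the 4383 introns at 60 min (y axis, log2) against 30 min (x axis, log2), 1 point per intron, coloured by class, with lines at no change and at a change of 1 in either direction. Right, number of introns by change in RSEI (60 min minus 30 min), with a dashed line at the median. The bulk of the introns lies above the line of no change, around a median of 0.76, and the 7 introns that fell further lie well below it.

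As shares of all junction reads, both parts of the ratio moved. When the reads of each intron were divided by the total of their library, split reads at 60 min were at 1.18 of the 30 min level at the median, unsplit reads at 0.744 and their sum at 0.989. In the introns that regained spliced RNA, split reads were at 1.53 and unsplit reads at 0.561 of the 30 min level at the median, and all reads at 1.03. In the 7 introns that fell further, the median was 0.333 for split reads and 1.20 for unsplit reads. The same reads set the classes, so moves in these directions follow in part from the rule. Both kinds of reads were divided by the same total, so a lower share of one raises the share of the other. Whether spliced RNA rose in amount was not tested. These values describe the RNA present at harvest and not a rate of splicing.

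In 570 introns the unspliced form prevailed at 30 min and the spliced form at 60 min, out of 1753 with a negative RSEI at 30 min (32.5%). The opposite switch, a positive RSEI at 30 min and a negative one at 60 min, was seen in 29 introns. The RSEI was negative at both times in 1147 introns and positive at both in 2556, and the other 81 had a RSEI of exactly 0 at one of the times. Without inhibitor, 136 introns were negative.

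The untreated library gives the level to which a regain can be set. Among 4301 introns with more than 10 reads there too, the unspliced share was above the untreated share, with intervals that did not overlap, in 2184 introns at 60 min and in 2970 at 30 min. No intron was less unspliced at 60 min than without inhibitor by this rule. The introns that regained spliced RNA had a median unspliced share of 24.2% at 60 min and 49.2% at 30 min, against 6.25% untreated. The introns that stayed had 26.8% at 60 min and 34.1% at 30 min, against 6.97% untreated. The group that regained thus began from a higher unspliced share at 30 min and ended at a level close to that of the others. The 30 min reads enter both the class and this starting level, so the high start is in part a property of the classes.

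The largest rise among introns with at least 50 reads in both libraries was in intron I of *qcr9* (SPCC1682.01), which encodes a small subunit of the ubiquinol-cytochrome c reductase of the respiratory chain. It had 86 split and 4 unsplit reads at 60 min, against 100 split and 82 unsplit reads at 30 min, and 132 and 0 in untreated cells. The unspliced share was 4.44% (1.22 to 11) at 60 min and 45.1% (37.7 to 52.6) at 30 min, a change in RSEI of 3.84. Split reads were nearly level, at 0.988 of their share at 30 min, and unsplit reads were at 0.0691 of theirs. In these shares, the change of this intron lay almost wholly in unsplit reads.

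Another pattern was seen in intron II of SPBC16H5.12c, a gene of unknown function, whose 308 nt make it the longest of the 10 introns with the largest rise. It had 94 split and 17 unsplit reads at 60 min, against 22 split and 57 unsplit reads at 30 min, and 88 and 7 without inhibitor. Split reads rose 4.74-fold and the unspliced share was 15.3% at 60 min and 72.2% at 30 min (change 3.73). Intron III of SPBC21.03c, which the annotation links to tRNA metabolism, was an extreme case of partial regain. It had 16 split and 50 unsplit reads at 60 min, against 1 split and 49 unsplit reads at 30 min, and 33 and 2 without inhibitor. Its RSEI was higher by 3.06 at 60 min although 75.8% (63.6 to 85.5) of its reads were still unspliced, and its unsplit reads were as frequent as at 30 min (1.17-fold). Its 5' SS, GTATAG, is among those printed above that depart most from the bases complementary to snRNA U1, with 4 matches of 9.

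Intron II of *skb15* (SPCC16C4.08c), encoding an inhibitor of a p21-activated kinase, was back to 93 split and 0 unsplit reads at 60 min, against 77 split and 8 unsplit reads at 30 min, and 50 and 0 in untreated cells. A count of 0 unsplit reads among 93 allows an unspliced share of up to 3.89%. In intron I of SPAC977.18, 124 split and 5 unsplit reads were counted at 60 min, against 90 split and 32 unsplit reads at 30 min. This gene of unknown function had only 3 reads at the intron in untreated cells, so its RNA was scarce there and frequent in both treated libraries.

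An intron of an RNA polymerase gene and an intron of a DNA replication gene also stood in this group. Intron II of *rpb8* (SPBC14C8.12), encoding a subunit shared by the nuclear RNA polymerases, had 133 split and 4 unsplit reads at 60 min, against 68 split and 16 unsplit reads at 30 min, and 170 and 10 in untreated cells. Its unspliced share, 2.92% (0.801 to 7.31) at 60 min, overlapped the untreated share of 5.56% (2.70 to 9.98). Intron II of *psf3* (SPAC227.16c), encoding a subunit of the GINS complex of the replicative helicase, had 97 split and 4 unsplit reads at 60 min, against 53 split and 17 unsplit reads at 30 min, and 144 and 7 in untreated cells. It too was at its untreated level, 3.96% at 60 min and 4.64% without inhibitor. Split reads were 2.23-fold and 2.08-fold higher in these introns, while their unsplit reads were at 0.337 and 0.319 of the 30 min level.

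Intron II of *nop58* (SPAC23G3.06), which encodes a core protein of the box C/D snoRNPs that guide methylation of ribosomal RNA, had 242 split and 33 unsplit reads at 60 min, against 165 split and 137 unsplit reads at 30 min, and 313 and 11 in untreated cells. Its unspliced share was 12% (8.41 to 16.4) at 60 min and 45.4% (39.7 to 51.2) at 30 min, against 3.40% (1.71 to 5.99) untreated, so it improved without reaching the untreated level. Intron II of *osh41* (SPBC1271.12), encoding an oxysterol binding protein, had 77 split and 6 unsplit reads at 60 min, against 47 split and 25 unsplit reads at 30 min, with a change of 2.59. Intron I of SPAC6F6.11c, encoding a pyridoxine kinase, changed by 2.58 and stayed mostly unspliced, with 17 split and 33 unsplit reads at 60 min against 5 split and 67 unsplit reads at 30 min. In untreated cells it had 24 split and 17 unsplit reads, so this intron was poorly spliced before the inhibitor was added. In all, 103 of the 589 introns had a change of at least 2 and 17 a change of at least 3.

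The 7 introns that fell further are few enough to be described one by one. The clearest is the only intron of *erg5* (SPAC19A8.04), 332 nt long, in the gene for the C-22 sterol desaturase of ergosterol synthesis. It had 30 split and 115 unsplit reads at 60 min, against 259 split and 148 unsplit reads at 30 min, and 982 and 125 in untreated cells. The unspliced share was 79.3% (71.8 to 85.6) at 60 min and 36.4% (31.7 to 41.2) at 30 min, and the RSEI fell by 2.71. Split reads were at 0.137 and unsplit reads at 0.893 of their share at 30 min. The loss in this gene thus lay in split reads, while the share of unsplit reads hardly moved.

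Intron I of *wbp1* (SPCC338.15), in the gene for a subunit of the oligosaccharyltransferase that attaches glycans to proteins in the endoplasmic reticulum, had 66 split and 16 unsplit reads at 60 min, against 230 split and 17 unsplit reads at 30 min, and 217 and 6 in untreated cells. Its unspliced share was 19.5% (11.6 to 29.7) at 60 min and 6.88% (4.06 to 10.8) at 30 min, a change of -1.70. Intron IV of *vma2* (SPAC637.05c), encoding subunit B of the vacuolar ATPase, had 202 split and 42 unsplit reads at 60 min, against 429 split and 36 unsplit reads at 30 min, and 361 and 20 in untreated cells. At 30 min these introns were still within reach of their untreated shares, 2.69% and 5.25% with overlapping intervals, and the difference appeared at 60 min. In both genes the neighbouring introns went the other way, *wbp1* intron III by 2.22 and *vma2* intron III by 1.25 with overlapping intervals.

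Intron II of SPAC1687.21, annotated as a fructose-2,6-bisphosphatase gene, had 115 split and 130 unsplit reads at 60 min, against 416 split and 168 unsplit reads at 30 min, and 1405 and 50 in untreated cells. Intron I of the same gene, in the 5' UTR, also had a lower RSEI at 60 min, with 45 split and 21 unsplit reads at 60 min against 103 and 31 at 30 min (change -0.64, stayed), while introns III, IV and V changed by 0.54, 0.74 and 1.01. Intron I of *fkh1* (SPBC839.17c), encoding an FKBP-type prolyl isomerase, had 27 split and 191 unsplit reads at 60 min, against 73 split and 182 unsplit reads at 30 min, and 226 and 53 in untreated cells. Its intron II was spliced throughout, with 252 split and 12 unsplit reads at 60 min against 301 and 15 at 30 min, which shows how differently introns of 1 gene stood in the same RNA.

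The intron of *rpl39* (SPCC663.04), which lies in the 3' UTR of this ribosomal protein gene, had 196 split and 1357 unsplit reads at 60 min, against 396 split and 1285 unsplit reads at 30 min, and 1092 and 554 in untreated cells. Its unspliced share was 87.4% (85.6 to 89.0) at 60 min and 76.4% (74.3 to 78.5) at 30 min. The 7th is a junction in *vps901* that matches no annotated intron. It had 0 split and 19 unsplit reads at 60 min, against 28 split and 16 unsplit reads at 30 min, and 0 and 15 in untreated cells, so its split reads were seen at 30 min alone. Across these 7 junctions, split reads were at 0.0395 to 0.569 of their share at 30 min and unsplit reads at 0.889 to 1.35. The share of split reads was lower in each of them, but the same reads set the class.

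**Figure D2:**
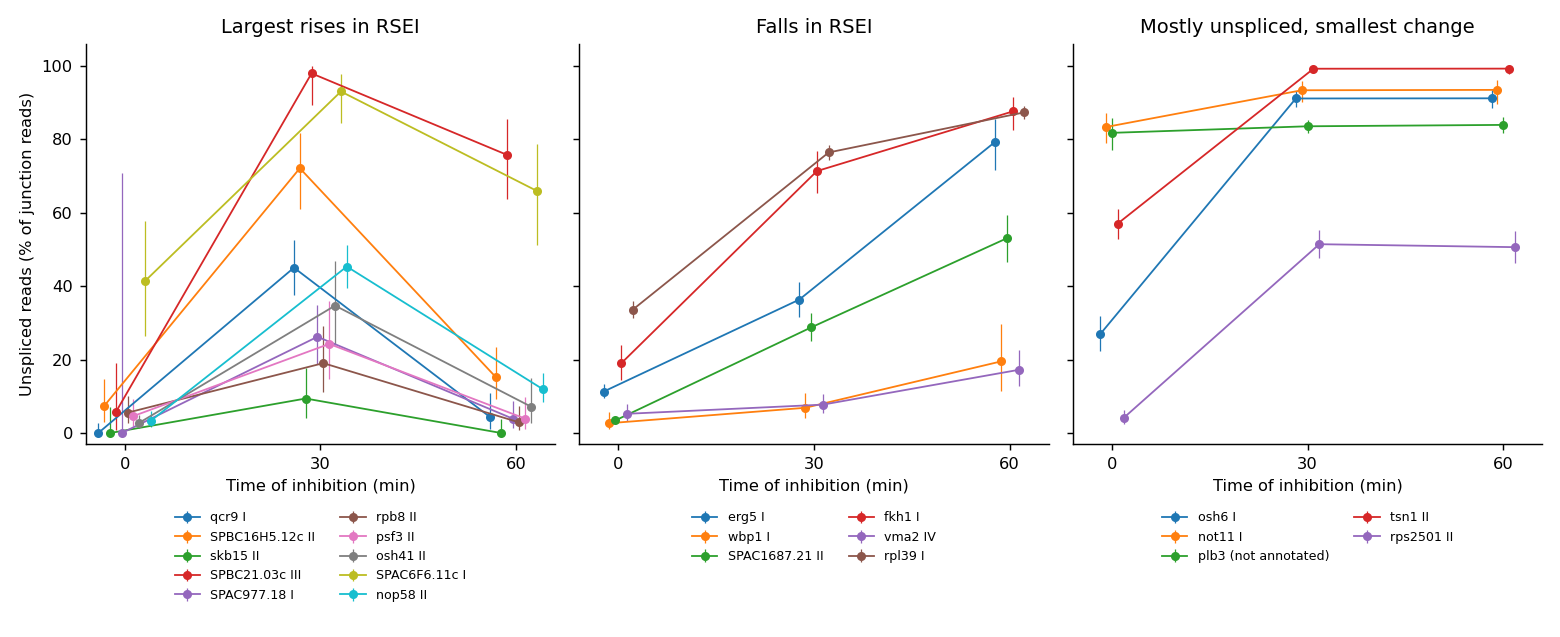
Unspliced share of junction reads (y axis, %) in untreated cells and after 30 and 60 min of inhibition (x axis, min) for the 10 introns with the largest rise in RSEI, the 6 introns with at least 50 reads that fell further, and 5 introns over 50% unspliced at 30 min with the smallest change; points are single libraries, shifted sideways for clarity, and bars are exact 95% intervals. The introns on the left peak at 30 min, those in the middle climb at both steps, and those on the right hold their level after 30 min.

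Of 1753 introns with a negative RSEI at 30 min, 1147 were negative at both times. Among 157 introns over 50% unspliced at 30 min with at least 200 reads in both libraries, 54 regained spliced RNA, 100 stayed and 2 fell further. Their median change was 0.72. Over all introns 13.4% regained spliced RNA, and 25.2% of those with at least 100 reads in both libraries did. An intron that stayed changed by less than 1 and need not have remained over 50% unspliced. The 5 of the 157 with the smallest change show what a flat course looks like. Intron I of *osh6* (SPCC23B6.01c), in another oxysterol binding protein gene, had 47 split and 487 unsplit reads at 60 min, against 63 split and 649 unsplit reads at 30 min, which is 91.2% unspliced at both times, and 266 and 98 in untreated cells. Intron II of *tsn1* (SPAC30.03c), encoding translin, had 3 split and 417 unsplit reads at 60 min, against 4 split and 537 unsplit reads at 30 min, and 258 and 343 in untreated cells. Intron II of *rps2501* (SPBC3D6.15), a ribosomal protein gene, was 50.6% unspliced at 60 min and 51.5% at 30 min, but 4.12% in untreated cells. These 3 were less spliced than without inhibitor at both times and showed no return by 60 min.

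The other pair of flat introns was mostly unspliced in untreated cells already. Intron II of *tsn1* also had more unsplit than split reads there. Intron I of *not11* (SPAC23H4.16c), encoding a subunit of the CCR4-NOT complex, was 93.5% unspliced at 60 min and 93.4% at 30 min, against 83.4% without inhibitor. A junction of the phospholipase gene *plb3* with no annotated intron was 84.0% unspliced at 60 min and 83.6% at 30 min, against 81.8% without inhibitor. Over all members, 498 introns in 414 genes were mostly unspliced at 60 min (interval above 50%) although they were mostly spliced in untreated cells (interval below 50%). Of these 498, 344 had stayed, 104 were not settled, 47 had regained spliced RNA in part and 3 had fallen further. Over all introns 13.4% regained spliced RNA. The 498 were chosen by their 60 min reads, which also set the class, so their split among the classes is in part a property of the choice. Their median unspliced share was 77.2% at 60 min and 83.3% at 30 min.

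At the other end, 171 introns were under 10% unspliced by the whole interval at both times. Their median unspliced share was 2.61% at 60 min and 3.71% at 30 min, with a median change of 0.39. Of the 171, 5 regained spliced RNA, beside 13.4% of all introns and 2.88% of those up to 10% unspliced at 30 min. The 171 were chosen by the reads that also set the class, and a low share at 30 min leaves little room for a regain. The 5 introns with most reads were all in genes of ribosomal proteins and stayed. Intron I of *rpl14* (SPAC1805.13) had 25558 split and 613 unsplit reads at 60 min, against 29416 split and 738 unsplit reads at 30 min, a change of 0.06. The changes were 0.27 in *rps2402*, 0.23 in *rps21*, 0.04 in *rps1901* and -0.20 in *rpl2501*. The fewest reads among them were 6292 at 60 min and 8911 at 30 min, so counting error in these values is small.

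The median level of splicing differed more between kinds of 5' SS than the median change did. Each 5' SS was scored by its matches to CAG at the end of the exon and GUAAGU at the start of the intron, the bases complementary to the 5' end of snRNA U1. Only exact matches were counted. Wobble pairs, and pairs of other bases with the pseudouridine of U1, were not. Of these 9 bases, 4 to 9 matched in all but 6 annotated members. The median RSEI at 60 min was -1.0 with 4 matches, 0.42 with 5, 1.44 with 6, 2.0 with 7, 2.40 with 8 and 2.38 with all 9. At 30 min the same groups had medians of -1.81, -0.54, 0.58, 1.21, 1.80 and 1.44. The median change was 0.53, 0.92, 0.79, 0.73, 0.57 and 0.54 in this order, so that it was highest at 5 bases and lower at both ends. Introns that regained spliced RNA made up 11.7%, 18.9%, 14.6%, 10.2%, 8.98% and 0%, and the 0 of 30 introns at 9 matches allow a share of up to 11.6%. All 6 annotated introns that fell further had 6 such bases, a number that 1766 members share.

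Single bases of the 5' SS also went with the level. With G at -1, the most frequent base there, the median RSEI was 1.81 at 60 min and 1.00 at 30 min, and with C it was 0.73 at 60 min and 0.00 at 30 min, but the median change was 0.74 and 0.79. With U in place of G at +5, the median RSEI was 0.00 at 60 min and -0.71 at 30 min, and the median change 0.75, against 0.77 with G. Among hexamers the spread was wider. GUAAGU, the most frequent with 1204 introns, had the lowest median change among hexamers with at least 50 introns, 0.70, GUAUGU with 894 introns had 0.77, and the highest medians were 0.96 for GUAUGG (69 introns), 0.96 for GUAGGU (62) and 0.97 for GUUUGU (64). By branch pentamer the medians ran between 0.64 for UUGAC (62 introns) and 0.95 for CUGAU (51), and the 2 most frequent, CUAAC with 1432 introns and CUAAU with 793, had 0.79 and 0.82. The branch pentamer was the one nearest the 3' SS with a pyrimidine, U, any base, A and a pyrimidine in the last 40 nt, and it was not mapped by experiment.

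Length went with the change. The median change was 0.90 in 972 introns of up to 45 nt, 0.84 in 1462 of 46 to 60 nt, 0.78 in 962 of 61 to 99 nt, 0.63 in 629 of 100 nt to under 200 nt and 0.48 in 304 of 200 nt or more. Regained spliced RNA was called in 14.8%, 16.4%, 12.8%, 9.70% and 6.91% of these introns, and in 31.1%, 30.4%, 22.8%, 15.9% and 9.74% of those with at least 200 reads in both libraries together. The RSEI was lower at 60 min in 25.7% of the longest group and in 12.1% of the shortest. At 30 min the long introns had been better spliced, with a median RSEI of 1.16 against 0.32 in the shortest group, and at 60 min the medians were 1.69 and 1.36, so the groups lay closer together at the later time. With the cytosolic ribosomal protein genes left out, whose introns include long ones, the medians from the shortest to the longest group were 0.90, 0.85, 0.80, 0.66 and 0.50.

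**Figure D3:**
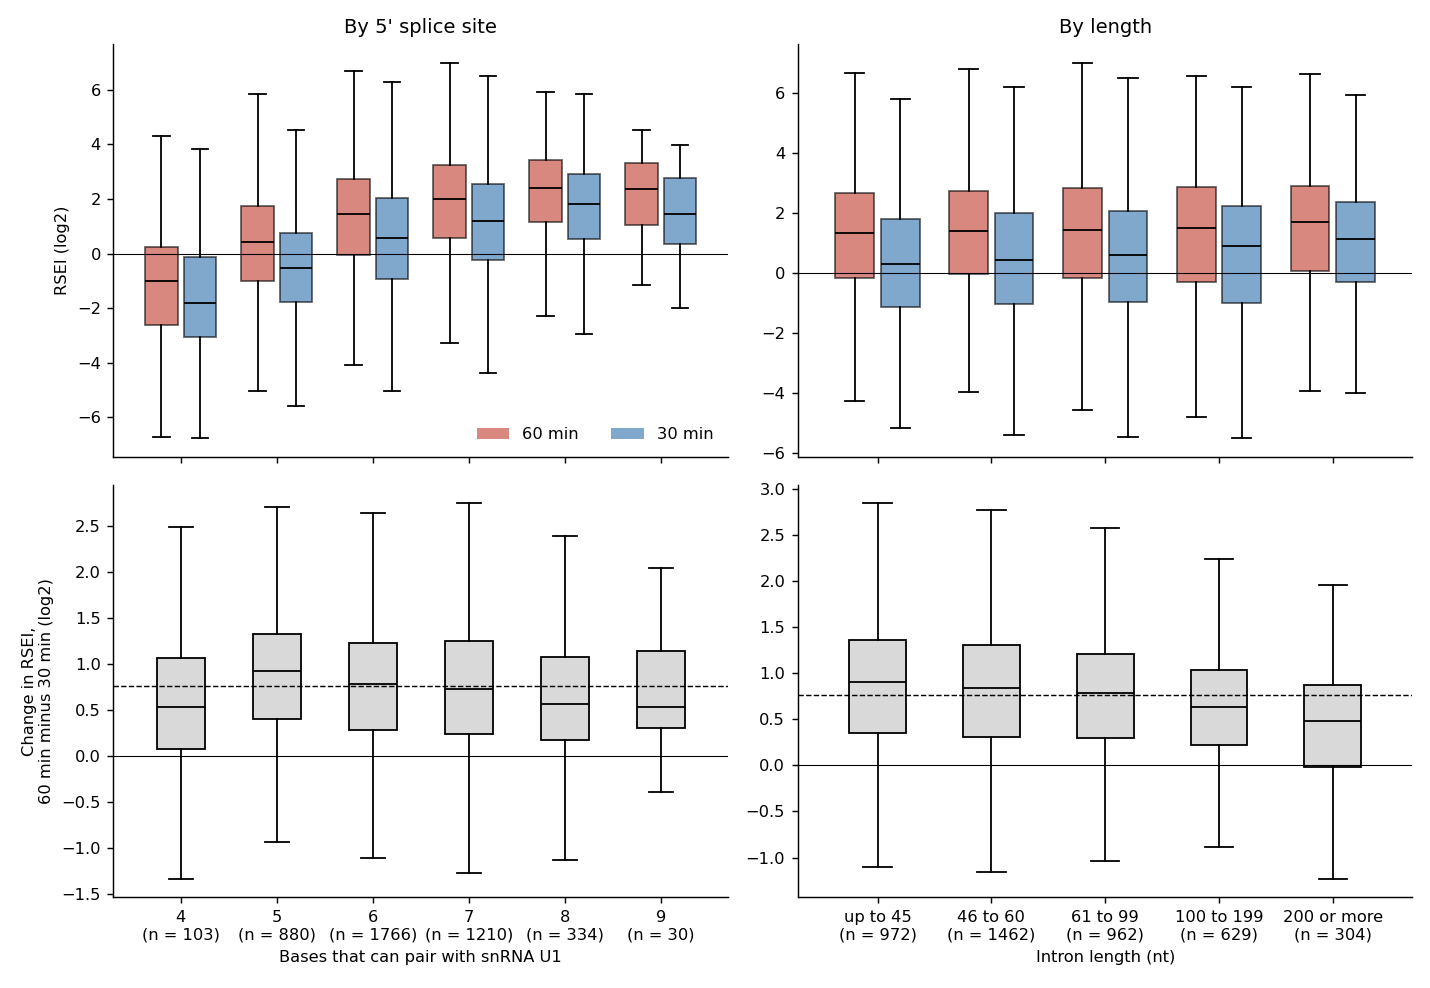
Upper panels, RSEI (y axis, log2) at 60 min and 30 min by number of matches to CAG and GUAAGU (labelled as bases that can pair with snRNA U1) and by intron length. Lower panels, change in RSEI (60 min minus 30 min) for the same groups, with a dashed line at the median of all introns. Boxes show quartiles and median and whiskers reach the last value within 1.5 times the box height. The median levels climb with the number of matches up to 8 at both times and are lower at 9, while the median change stays between 0.53 and 0.92. The change declines with length to 0.48.

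The number of introns in a gene and the place in the transcript also went with the change. In the 918 introns that are the only one of their gene the median change was 0.66 and 8.82% regained spliced RNA, against 0.81 and 14.9% in the 3411 introns of genes with several. With at least 200 reads in both libraries together, the figures were 0.62 and 14.2% for single introns, against 0.81 and 27.6%. Among genes with several introns, the order hardly counted, with medians of 0.80 for the first, 0.86 for inner and 0.79 for last introns. Of the 17 introns in 3' UTRs none regained spliced RNA (upper limit 19.5%) and the median change was 0.01, beside 0.67 in 80 introns of 5' UTRs and 0.78 in 4230 introns within the coding region. The 3' UTR introns were poorly spliced without inhibitor, with a median RSEI of 0.00, and the median at 60 min was -2.16, against -2.15 at 30 min.

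Introns that were mostly unspliced without the inhibitor gained little. The median change was 0.78, 0.79, 0.78, 0.82 and 0.66 for untreated unspliced shares of up to 2%, 2 to 5%, 5 to 10%, 10 to 20% and 20 to 50%, and 0.18 in 121 introns that were over 50% unspliced. None of these 121 regained spliced RNA (upper limit 3.0%), and their median RSEI was -3.23 at 60 min and -3.28 at 30 min, against -1.22 in untreated cells.

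Gene groups were taken from 16 lists of gene symbols with 36 to 211 measured introns each, and all 16 had a median change above 0. The shares of introns that regained spliced RNA are to be set beside the 13.4% over all introns. The exact 95% interval of a list's share included 13.4% in all lists but 2. These were the cytosolic ribosomal proteins (0.670 to 9.14%) and vesicle traffic and small GTPases (16 to 27.5%). Such intervals count introns as independent, although several come from 1 gene, as with 211 introns in 82 genes in the vesicle traffic list. They can thus be too narrow and do not serve as a test. The shares also move with the number of reads, for which the lists were not matched. The cytosolic ribosomal protein list stood lowest. Its 93 introns had a median change of 0.32, beside 0.76 over all introns, and 3 regained spliced RNA, 86 stayed, 3 were not settled and 1, in *rpl39*, fell further. Introns I and II of *rpp40* account for 2 of the 3, and this gene encodes a subunit of RNase P that shares its symbol pattern with the ribosomal P proteins. With *rpp40* and *rpp1*, another such gene, left out, 1 of 86 introns regained spliced RNA (1.16%) and the median change was 0.30. This intron is that of *rpl3002* (SPAC1250.05), with 76 split and 23 unsplit reads at 60 min, against 26 split and 25 unsplit reads at 30 min, and 135 and 36 in untreated cells. The median RSEI of the 93 introns was 2.85 at 60 min and 2.55 at 30 min, against 4.38 untreated, and over all introns it was 1.42 at 60 min and 0.54 at 30 min, against 3.49 untreated. At 30 min the ribosomal protein list was 14.4% unspliced at the median. Of all introns that were 10 to 20% unspliced at 30 min, 5.89% regained spliced RNA, with a median change of 0.56. Of those at up to 10%, 2.88% did, with a median change of 0.26. The 30 min reads enter both these groups and the change. The translation factor list, 16.4% unspliced at 30 min at the median, had a higher untreated median RSEI, 4.85, and a median change of 0.85. Only uniquely mapped reads were counted, so reads that near-identical paralogs share are not in these values.

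Respiration genes and meiosis genes also lay under the median of all introns. Respiration and ATP synthase genes had a median change of 0.51 and 8 of 73 introns that regained spliced RNA (11%, beside 13.4% of all introns), although intron I of *qcr9* had the largest rise of all well-read introns. Intron I of *atp4*, of the ATP synthase stator, changed by 1.65, while introns of *cox4* and *atp3* had changes of -0.91 and -0.73 at unspliced shares of 6.36% and 2.91% at 60 min and 3.43% and 1.75% at 30 min. Genes of meiosis and sexual differentiation had a median of 0.49, with 6 of 62 regained (9.68%). Their median RSEI was 0.25 at 60 min and -0.25 at 30 min, the lowest of the lists. Intron III of *spo14* changed by 2.20 and was still 82.2% unspliced at 60 min, after 95.9% at 30 min.

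DNA replication and repair genes stood highest, with a median change of 1.00, and 14 of 111 introns (12.6%) regained spliced RNA, beside 13.4% of all introns. Besides *psf3*, intron I of *rhp23*, a nucleotide excision repair gene, had 91 split and 0 unsplit reads at 60 min, against 100 split and 6 unsplit reads at 30 min, and was not settled. In *orc6*, a subunit of the origin recognition complex, intron I remained mostly unspliced, with 26 split and 117 unsplit reads at 60 min against 48 and 148 at 30 min. Mitochondrial ribosomal protein genes had a median of 0.95 and 7 of 37 regained (18.9%, beside 13.4% of all introns), led by *mrpl23* intron I (1.75), with 108 split and 18 unsplit reads at 60 min against 91 and 53 at 30 min. The median RSEI of this list was 1.04 at 60 min and 0.25 at 30 min.

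In the actin cytoskeleton and cytokinesis list 10 of 40 introns regained spliced RNA (25%, exact 95% interval 12.7 to 41.2%, beside 13.4% of all introns), and the median change was 0.93. Intron I of *arc4*, of the Arp2/3 complex that branches actin filaments, had 612 split and 16 unsplit reads at 60 min, against 521 split and 60 unsplit reads at 30 min, and 534 and 13 in untreated cells, and was thereby back at its untreated share. Intron III of *cdc4*, encoding the myosin light chain of the contractile ring, changed by 1.74. Introns I and II of *cdc3*, encoding profilin, stayed, with changes of -0.20 and -0.13. Vesicle traffic and small GTPase genes had 45 of 211 introns regained (21.3%) and a median of 0.88. Intron I of *cdc42*, the GTPase of cell polarity, had 187 split and 9 unsplit reads at 60 min, against 154 split and 31 unsplit reads at 30 min. The vacuolar ATPase list had 9 of 41 regained (22%, interval 10.6 to 37.6%) and a median of 0.76, with *vma5* intron II and *vma3* intron II at 1.86 and 1.84 and *vma2* intron IV among the falls.

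Spliceosome and snRNP protein genes, which act in the process under study, had a median change of 0.75 and 15 of 124 introns regained (12.1%, beside 13.4% of all introns). Intron I of *prp19*, a ubiquitin ligase of the active spliceosome, had 91 split and 4 unsplit reads at 60 min, against 72 split and 20 unsplit reads at 30 min, and 95 and 12 in untreated cells. Intron I of *sap62*, a U2 snRNP protein gene, had a change of -0.53 and was 59.8% unspliced at 60 min, after 50.4% at 30 min. Genes of RNA polymerases and general transcription factors had a median of 0.83 and 15 of 88 regained (17.0%). Besides *rpb8*, intron I of *tfb2*, of the factor TFIIH, changed by 2.11 with overlapping intervals, and intron I of *taf13*, of TFIID, remained 88.5% unspliced at 60 min and 84.2% at 30 min.

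In the other lists the share of regained introns was between 11.1% and 17.7%, beside 13.4% of all introns. Ubiquitin and ubiquitin-like conjugation genes had 17 of 96 regained with a median of 0.90, led by intron II of *ubc15* with 252 split and 34 unsplit reads at 60 min against 76 and 50 at 30 min. Proteasome genes had 6 of 42 with a median of 0.84, tubulin and spindle genes 7 of 43 with 0.81, cell cycle regulators 7 of 54 with 0.81, translation factors 4 of 36 with 0.85 and protein kinases 9 of 79 with 0.70. No intron of the translation factor list, 36 introns in 22 genes, had a lower RSEI at 60 min than at 30 min, beside 14.7% of all introns. The proteasome list (42 introns) and the mitochondrial ribosomal protein list (37 introns) had 2 such introns each. Intron I of *cds1*, the kinase of the replication checkpoint, had 63 split and 58 unsplit reads at 60 min, against 20 split and 93 unsplit reads at 30 min, and 268 and 15 in untreated cells. In *klp3*, a kinesin gene, intron I changed by 1.97 and intron II by -1.23, with intervals that overlapped in intron II. No set test was made on any list, and the lists rest on symbols alone.

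**Figure D4:**
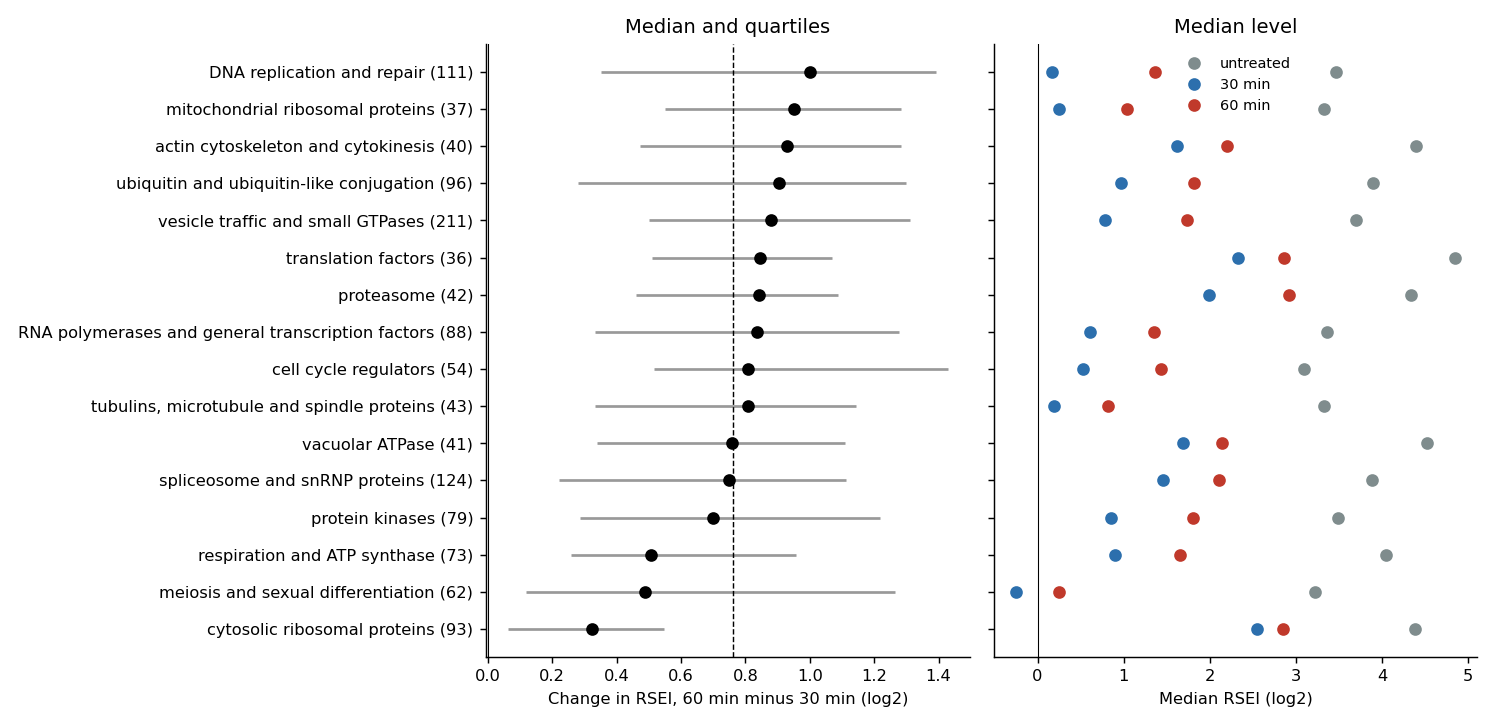
Left, median change in RSEI (60 min minus 30 min, log2) with quartiles as bars for 16 gene lists, number of introns in brackets, and a dashed line at the median of all introns. Right, median RSEI (log2) of each list in untreated cells and after 30 and 60 min. The cytosolic ribosomal proteins have the smallest median change (0.32) and DNA replication and repair the largest (1.00), and every list stays below its untreated level at 60 min.

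Introns of the same gene can be compared within the same RNA. Of 1159 genes with at least 2 members, 774 had a higher RSEI at 60 min in every intron, 16 in none and 361 had introns on both sides. An intron that regained spliced RNA was found in 394 of these genes, and 324 of the 394 also held one that stayed. Over all members 2674 of 4383 introns stayed and 13.4% regained spliced RNA, so a gene with both is frequent without any link between its introns. An intron that stayed can also have a higher RSEI at 60 min, by less than 1. In 18 genes every member regained spliced RNA. A distance between the largest and the smallest change was taken in 651 genes with 2 or more introns of at least 50 reads in both libraries. Its median was 0.71, and it was 1 or more in 231. Counting error alone puts such a distance above 0, and it grows with the number of introns. How much of it is counting error was not tested. The widest range was found in *nup107* (SPBC428.01c), a gene for a nuclear pore protein, at 4.62.

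In *nup107*, intron IV had 38 split and 13 unsplit reads at 60 min, against 23 split and 41 unsplit reads at 30 min, and intron V also regained spliced RNA. Intron VI had 58 split and 8 unsplit reads at 60 min, against 65 split reads and 1 unsplit read at 30 min, a change of -2.33 whose intervals overlapped. The sequences of these introns, and of *wbp1* intron III for comparison with its intron I above, are these.
nup107 intron IV (II:441485-441540, - strand): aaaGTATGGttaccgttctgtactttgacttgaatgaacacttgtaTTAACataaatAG
nup107 intron VI (II:441188-441228, - strand): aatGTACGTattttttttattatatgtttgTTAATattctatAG
wbp1 intron III (III:1348239-1348368, - strand): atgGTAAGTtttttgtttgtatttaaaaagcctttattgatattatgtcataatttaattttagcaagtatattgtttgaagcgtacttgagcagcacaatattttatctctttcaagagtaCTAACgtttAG
Introns IV and VI of *nup107* have 5 and 6 bases that match those complementary to U1, and introns I and III of *wbp1* have 6 and 7.

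The other genes with wide ranges were *wbp1* (3.93), *qcr9* (3.42), *osh41* (3.35), *rho2* (3.32) and *sec17* (3.28). In *qcr9*, intron I changed by 3.84, intron II by 1.01 and intron III by 0.42, and the last was still 39.3% unspliced at 60 min, after 46.5% at 30 min. In *osh41*, introns II and IV regained spliced RNA, intron III had a lower RSEI at 60 min, with 63 split and 71 unsplit reads at 60 min against 47 and 31 at 30 min, and introns V and VII stayed mostly unspliced, at 76.2% and 90.6%. The low ends of *rho2* (intron VII) and *sec17* (intron II, the gene of alpha-SNAP) rest on 9 and 4 unsplit reads at 60 min, against 1 and 1 at 30 min. Their intervals overlapped, so the counts do not settle a fall.

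**Figure D5:**
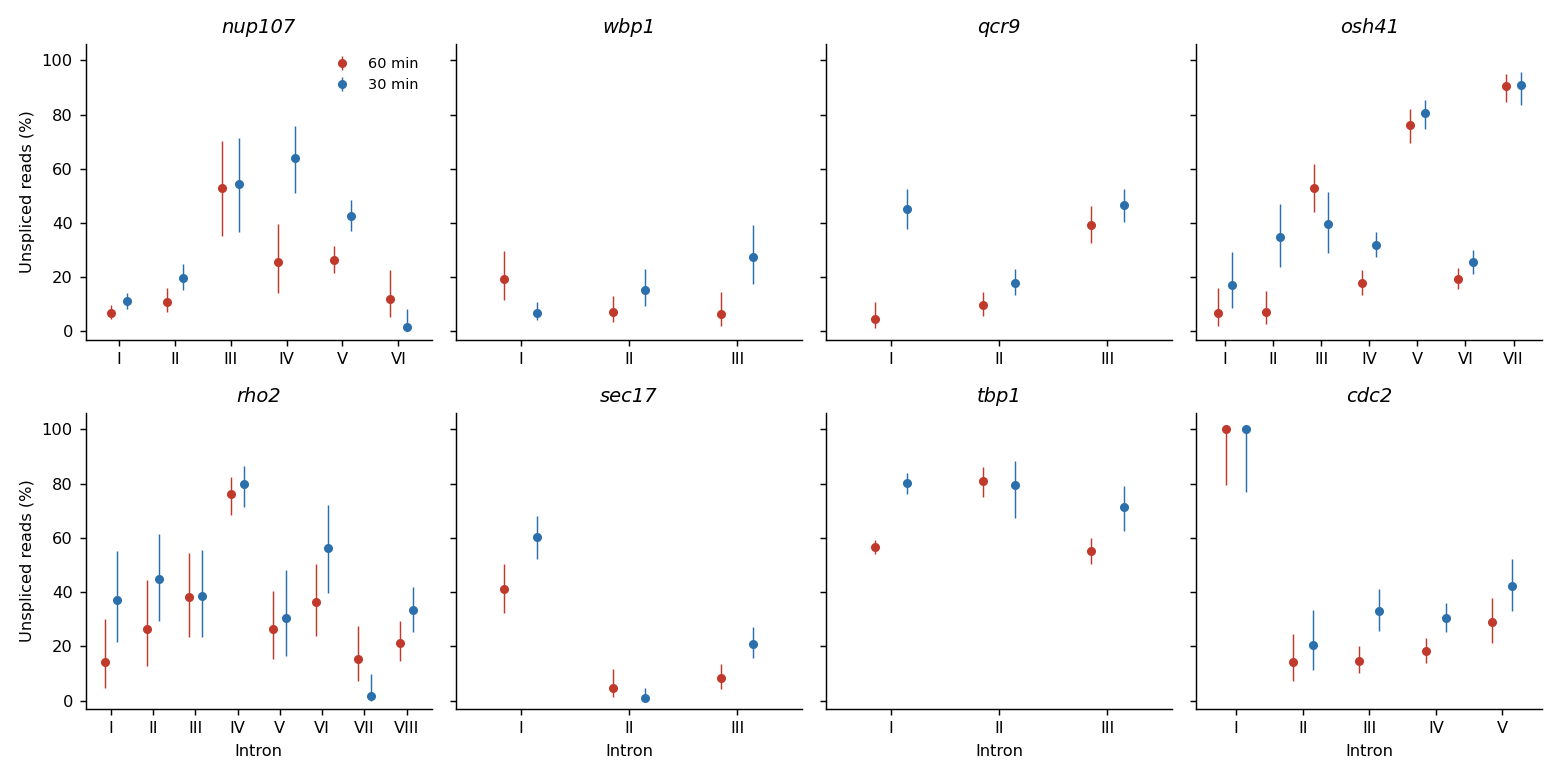
Unspliced share of junction reads (y axis, %) at 60 min and 30 min for each measured intron (x axis, roman numerals) of 8 genes; bars are exact 95% intervals. In *wbp1* intron I is more unspliced at 60 min while introns II and III are less so, and in *tbp1* introns I and III move while intron II does not.

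With the reads of all its introns summed, 375 genes regained spliced RNA by the same rule, 17.0% of the 2201 genes, and 3 fell further, 0.136%. Those 3 are *erg5*, *rpl39* and *vps901*, each with 1 measured junction. Of the other genes, 1511 stayed and 312 were not settled.

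The genes that the study used as examples followed different courses. The intron of *res1*, a component of the MBF transcription factor of the G1 to S transition, stayed, with 69 split and 168 unsplit reads at 60 min, against 63 split and 163 unsplit reads at 30 min, and 160 and 38 in untreated cells. In *tbp1* (SPAC29E6.08), encoding the TATA-binding protein, intron I had 624 split and 817 unsplit reads at 60 min, against 84 split and 340 unsplit reads at 30 min, and 2054 and 238 in untreated cells. Its intron III also regained spliced RNA, with 201 split and 247 unsplit reads at 60 min against 35 and 88 at 30 min. Intron II stayed, with 40 split and 170 unsplit reads at 60 min against 13 and 50 at 30 min. All 3 introns remained more than 50% unspliced at 60 min.

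In *cdc2*, which encodes the cyclin-dependent kinase, intron III regained spliced RNA (1.52) and introns II, IV and V stayed with changes of 0.62, 0.96 and 0.83. Intron I, in the 5' UTR, had no split read in either library, with 16 unsplit reads at 60 min and 14 at 30 min. The numbering here counts this 5' UTR intron. The paper describes introns that interrupt the reading frame of *cdc2* and numbers them from I, so its numbers differ from those here. The intron of *rpl29* had 1354 split and 763 unsplit reads at 60 min, against 1736 split and 1689 unsplit reads at 30 min, and stayed by a change of 0.79. Its unspliced share, 36.0% (34 to 38.1) at 60 min and 49.3% (47.6 to 51.0) at 30 min, was lower with intervals that did not overlap. The 9 introns of *srp2* all stayed, with changes between -0.18 and 0.78, and the 2 of *srp1* changed by 0.83 and 0.99. Introns of *rpb5* (0.49 and 0.84), *mrp17* (1.23, not settled, and 0.76), *ade2* (0.37 and 0.06) and *ppk8* (0.20) were not called regained. The introns of *res2* and of *prp4* itself had too few reads, with 3 and 4 at 60 min against 6 and 6 at 30 min.

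Junction reads of a gene, spliced and unspliced together, changed little as a rule. Of 1790 genes with at least 100 reads in the 2 libraries together, 92.2% were within 1.5-fold. Reads rose at least 2-fold in 16 genes (0.894%) and fell at least 2-fold in 8 (0.447%), as shares of all junction reads. The values come from whole cultures, in which fewer cells with an RNA and less of it per cell cannot be told apart. Intervals of these folds are exact 95% intervals for counting error.

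The largest rise was in *tbp1*, with 2099 reads at 60 min and 610 at 30 min, a fold of 3.94 (3.60 to 4.33), and 2850 in untreated cells. Next came *dtd1*, encoding a D-tyrosyl-tRNA deacylase, with 374 reads at 60 min and 126 at 30 min, a fold of 3.39 (2.77 to 4.20), and 724 in untreated cells. Smaller rises among genes with at least 100 reads in both libraries were those of SPAC644.09 (2.39), the tRNA methyltransferase gene *trm5* (2.18), the RNA helicase gene *dbp8* (2.16), the peptidase gene *icp55* (2.13) and *ubc15* (2.03). For *icp55* the reads were 605 at 60 min and 325 at 30 min, against 1335 untreated, and for *ubc15* 658 and 372, against 1355. In both the 60 min level lay between that at 30 min and the untreated one.

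The p23 co-chaperone gene *wos2* (SPAC9E9.13) had another course. It had 2644 reads at 60 min and 1485 at 30 min, a fold of 2.04 (1.92 to 2.18), and 1136 in untreated cells. Its RNA was thus more frequent at each later time, and its intron stayed, with a change of 0.20 and an unspliced part of 269 reads at 60 min and 171 at 30 min.

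The largest fall among genes with at least 100 reads in each library was in *erg5*, with 145 reads at 60 min and 407 at 30 min, a fold of 0.410 (0.336 to 0.495), and 1107 in untreated cells. The triacylglycerol lipase gene *ptl2* had 135 reads at 60 min and 326 at 30 min, a fold of 0.477, and 564 in untreated cells, with a RSEI change of 0.92. Falls short of 2-fold were those of *bet1*, a SNARE gene (0.535), SPBC409.08 (0.544), *pho2* (0.572), *mdh1* (0.595), *ssb3* (0.601) and *rho4* (0.605). SPBC409.08, a spermine transporter gene, had 255 reads at 60 min and 539 at 30 min, against 108 in untreated cells, and so came down from a peak. The folds between 60 and 30 min and those between 30 min and untreated cells share the 30 min library, so a high or low count there moves both.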

How the data were processed

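RNA of *S. pombe prp4-as2* cells was sequenced as directional polyadenylated-RNA libraries, 1 each for untreated cells and 30 and 60 min in 10 μM 1NM-PP1. According to the study's methods and the submitters' processing notes, reads were aligned with TopHat, SAMtools was used, and uniquely mapped reads were kept. The authors deposited, for each junction and library, counts of split and unsplit reads and their log2 ratio after adding 1, which was recomputed from the counts and used as RSEI. Repeated entries (6) were dropped, leaving 5368 junctions.

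Junctions with more than 10 reads in both inhibited libraries were kept and matched to RefSeq ASM294v3, which is later than the annotation the authors used. Changes are 60 min minus 30 min. Exact 95% intervals cover counting error of single libraries, and no p-value was computed. Gene values sum the reads of the kept introns. Read folds are ratios of shares of all junction reads, with 1 read added, and were called at 2-fold in genes with at least 100 reads in the 2 libraries together. The classification was tested on simulated data.

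Named introns were the 10 largest rises and falls called with at least 50 reads in both libraries, the 2 most positive and the 2 most negative changes per gene list, the example genes of the study, the 5 flattest introns over 50% unspliced at 30 min with at least 200 reads in both, the genes with the widest range of change, the 8 largest rises and falls in gene reads with at least 100 in each, and the 5 introns with most reads. The text gives part of these. The introns of *rpp40* and *vps901* and others given as neighbours of a named intron were chosen after their values were seen. Gene lists were built from symbol patterns. The members and lists were chosen with earlier results of these data known.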

Additional observations from a re-analysis of the deposited data

How the results depend on the processing

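Among the main counts, medians and shares recomputed under the alternatives, 24 values kept their size and 18 moved. A change of direction could be recorded only for the median change in RSEI, which remained above 0 wherever it was recomputed. A count was taken to move when it differed by more than 1.5 times, and a median or a share when it left the 95% interval of the value in the report. The introns that regained spliced RNA numbered 1611 with no requirement on the intervals, 295 with exact 99% intervals and 1110 with a Newcombe interval of the difference, and 103 with a required change of 2. Introns that fell further numbered 2 with a required change of 2, 98 with no requirement on the intervals and 23 with the Newcombe interval. Introns that stayed numbered 1666 with at least 50 reads in both libraries, 1362 with a limit of 0.5 and 4133 with a limit of 2. The median change was 0.82 without the added read. With the median over introns in place of summed reads, 673 genes regained spliced RNA and 33 fell further. With at least 50 reads in both libraries, the shares of regained introns with 4, 5, 6, 7 and 8 matches to the bases complementary to U1 were 20.4%, 29.1%, 21.9%, 14.7% and 14.7%. The counts of regained and fallen introns thus depend on the rule, while the recomputed median changes in RSEI were all above 0. The alternatives added after seeing the data were the ribosomal protein list without the RNase P genes and the groups by length and by introns per gene with at least 200 reads. No paired analysis was possible because each condition had 1 library. The reads limit the calls, since low counts give wide intervals, and 1 library per condition leaves the variation between cultures unmeasured.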
